A study of Mus musculus with 4 samples.

Results

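*Klc3*, *Sap25*, *Dnpep*, *Shank1*, *Psd*, *Ocel1* and *Adad2* are 7 of the 32285 genes counted in single cells of mouse testes at postnatal day 15. They were listed by symbol and chosen by their UMI counts in these same libraries. These counts were higher in wild-type than in *Meioc*-null cells around meiotic entry. That difference is therefore described here, and no test of it is used. Transcripts were counted as unique molecular identifiers (UMIs), each of which marks 1 captured molecule at its 3′ end whatever its length, and levels are given as UMIs per 1000000 of all UMIs in a group of cells (CPM). The samples were 2 wild-type and 2 *Meioc*-null C57BL/6N mice, 1 testis each, in 2 litter pairs that were also the 2 batches, with 1 mouse of each genotype in a pair. The null allele was *Meioc* tm1.1Dpc. Mice of both genotypes were heterozygous for *Hspa2* tm1Dix and homozygous for a *ROSA26* tdTomato reporter whose stop cassette was intact. The question set by the design was how the transcripts of germ cells change, stage by stage, when *Meioc* is missing.

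Male germ cells divide by mitosis as spermatogonia and then, as preleptotene spermatocytes, copy their DNA a last time and enter meiotic prophase, which runs through leptotene, zygotene and pachytene. Entry is driven by retinoic acid and by the transcription factors STRA8 and MEIOSIN. MEIOC is a cytoplasmic germ-cell protein that, together with YTHDC2 and RBM46, acts on messenger RNA during this switch. KLC3 is a light chain of the kinesin-1 motor, which carries cargo along microtubules, and is known from the tails of spermatids. SAP25 belongs to the SIN3 histone deacetylase complex, a corepressor of transcription. DNPEP is an aminopeptidase that removes acidic residues from the ends of peptides, and SHANK1 is a scaffold protein of the postsynaptic density. PSD activates the small GTPase ARF6, OCEL1 holds the domain shared by occludin and the ELL elongation factors, and ADAD2 is a germ-cell protein with an adenosine deaminase domain.

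Barcodes with more than 1000 detected genes and less than 10% mitochondrial UMIs numbered 6334 to 8494 per library, and 5644 to 7505 remained after likely doublets were removed. Any 2 libraries shared 45 to 73 barcodes, at most 0.501% of either. Germ cells formed 10 clusters, numbered along their order in wild type, and *Meioc*-null cells took the cluster of the wild-type cells nearest to them. Undifferentiated spermatogonia made up cluster 1 by their markers, and differentiating spermatogonia clusters 2 to 6. Clusters 7 to 10 scored highest for early spermatocytes, although cluster 7, which *Stra8* led, also held 5 of the markers of differentiating spermatogonia, and clusters 8 and 9 both joined cluster 7 in the tree that set the order. *Gm4969*, which encodes MEIOSIN, was highest in wild type in cluster 8, so clusters 7 to 10 were taken as meiotic entry and after, and clusters 1 to 6 as before it. Cluster 10 held 373 and 537 wild-type cells and 0 *Meioc*-null cells. The *Meioc* transcript itself was counted in both genotypes, at 635 and 686 CPM in wild-type cluster 7 and at 682 and 650 CPM in *Meioc*-null cluster 7, so its 3′ tags give no check of the genotype.

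The genes lie on 5 chromosomes (GRCm38, GENCODE vM21). *Adad2* (ENSMUSG00000024266) is at chr8:119612747-119616924 on the plus strand, *Ocel1* (ENSMUSG00000002396) at chr8:71371298-71379361 on the plus strand, *Sap25* (ENSMUSG00000079165) at chr5:137641334-137642902 on the plus strand and *Dnpep* (ENSMUSG00000026209) at chr1:75307896-75317990 on the minus strand. *Klc3* (ENSMUSG00000040714) is at chr7:19394437-19404104 on the minus strand, *Shank1* (ENSMUSG00000038738) at chr7:44310253-44360572 on the plus strand and *Psd* (ENSMUSG00000037126) at chr19:46312087-46327156 on the minus strand. All 7 are annotated as protein coding. RefSeq promoters (GRCm38.p6, 250 bases before to 50 after a start site) matched 6 of the 7 genes, with 8 promoters between them. They were searched on both strands for CACGTG (an E-box, which MYC, MAX and MGA are known to bind), for GCGGGAA (the core of E2F sites) and for CNCCTCAG (the STRA8 and MEIOSIN motif). CACGTG was found in promoters of 3 of the genes and in 7.15% of all 32851 promoters of that length, CNCCTCAG in 1 of the genes and in 7.94% of all, and GCGGGAA in 0 of the genes and in 4.60% of all. The 3 promoters with a match are shown, and that of *Klc3* as one without any of these letters. Each reads 5′ to 3′ on the strand of its gene, and capitals mark the matches, which describe letters and not binding.
*Adad2*, chr8:119612463-119612762, plus strand: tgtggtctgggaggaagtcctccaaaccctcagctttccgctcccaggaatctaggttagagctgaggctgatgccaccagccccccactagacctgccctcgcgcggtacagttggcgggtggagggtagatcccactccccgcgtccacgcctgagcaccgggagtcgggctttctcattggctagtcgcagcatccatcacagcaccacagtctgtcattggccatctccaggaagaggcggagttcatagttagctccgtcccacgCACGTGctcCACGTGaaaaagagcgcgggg
*Sap25*, chr5:137641223-137641522, plus strand: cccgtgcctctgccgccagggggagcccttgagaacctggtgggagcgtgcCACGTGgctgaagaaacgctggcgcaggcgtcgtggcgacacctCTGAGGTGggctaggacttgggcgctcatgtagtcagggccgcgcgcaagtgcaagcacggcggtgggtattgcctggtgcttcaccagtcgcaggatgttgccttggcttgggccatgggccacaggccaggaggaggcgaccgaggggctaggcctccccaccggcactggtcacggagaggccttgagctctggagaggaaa
*Dnpep*, chr1:75317588-75317887, minus strand: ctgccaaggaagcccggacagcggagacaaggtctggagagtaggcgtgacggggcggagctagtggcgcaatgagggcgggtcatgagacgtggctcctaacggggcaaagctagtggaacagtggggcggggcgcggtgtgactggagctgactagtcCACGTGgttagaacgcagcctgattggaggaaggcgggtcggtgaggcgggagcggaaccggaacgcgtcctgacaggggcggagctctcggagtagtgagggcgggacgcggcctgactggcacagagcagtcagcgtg
*Klc3*, chr7:19404055-19404354, minus strand: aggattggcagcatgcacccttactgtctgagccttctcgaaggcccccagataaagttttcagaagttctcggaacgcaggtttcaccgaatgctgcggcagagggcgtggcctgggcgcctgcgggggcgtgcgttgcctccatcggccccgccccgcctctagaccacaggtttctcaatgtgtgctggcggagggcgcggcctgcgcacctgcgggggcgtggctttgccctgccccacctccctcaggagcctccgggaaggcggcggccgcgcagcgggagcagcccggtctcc
The *Adad2* window holds CACGTG at 20 and 29 bases after the start site. In *Dnpep* it begins 90 bases and in *Sap25* 199 bases before the start site, and the CNCCTCAG match of *Sap25*, read on the other strand, begins 155 bases before it.

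Long before meiotic entry most of the transcripts were already present, at near levels in both genotypes. In cluster 1, the undifferentiated spermatogonia, *Klc3* stood at 35.0 and 29.2 CPM in wild-type replicates 1 and 2 and at 32.6 and 30.2 CPM in *Meioc*-null replicates 1 and 2. *Adad2* was at 44.5 and 38.2 CPM in wild type against 46.8 and 39.0 CPM in *Meioc*-null, and *Sap25* was at 13.4 and 13.6 CPM against 13.2 and 13.8 CPM. The ranges of the genotypes overlapped for these 3 transcripts. *Ocel1* had an early maximum in cluster 2, at 68.8 and 85.5 CPM in wild type against 65.7 and 77.1 CPM in *Meioc*-null. *Dnpep* lay between 49.7 and 86.8 CPM in wild-type clusters 1 to 6 and between 44.4 and 75.7 CPM in *Meioc*-null ones. *Psd* was at 3.43 to 5.38 CPM in clusters 1 and 2 over all 4 libraries and at 0.136 to 2.02 CPM in clusters 3 to 6. *Shank1* did not pass 4.42 CPM in any library of clusters 1 to 6.

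Of the 34 pairs of a member and a cluster that could be tested in clusters 1 to 5, edgeR's quasi-likelihood test on UMIs summed per library called 0 at a Benjamini-Hochberg adjusted p under 0.05. *Psd* in cluster 4, with under 10 UMIs in the 4 libraries together, was not tested. Over all genes tested, 0.0, 0.00579, 0.0781, 0.0289 and 0.0068% were called in clusters 1 to 5. At an unadjusted p under 0.05, 5 of the 34 pairs passed, beside 1.99, 1.7, 3.22, 3.17 and 5.16% of all genes in clusters 1 to 5, and DESeq2 called 0 of 34. *Ocel1*, *Sap25* and *Adad2* in cluster 5 were 3 of those 5 pairs, and both wild-type libraries lay above both *Meioc*-null libraries for each, as for 12.7% of all genes there. *Ocel1* was there at 44.6 and 47.6 CPM in wild type against 28.7 and 34.7 CPM in *Meioc*-null, so that the genotypes did not overlap, with a log2 fold change (wild type over *Meioc*-null) of 0.57 ± 0.16 (SE). For *Sap25* the values were 14.9 and 14.4 CPM against 9.90 and 11.004 CPM, and for *Adad2* 28.0 and 23.7 CPM against 21.8 and 19.0 CPM. With the litter pair as a block in edgeR, the 3 transcripts were called in cluster 5, with adjusted p = 1.17e-06 for *Ocel1*, 0.0153 for *Sap25* and 0.0287 for *Adad2*, where 4.43% of all genes were called with that block. Calls over all genes there went from 1 to 651 with the block, which leaves little of the 4 libraries to measure the spread. Which cells the choice of the 7 genes rested on is not known, so these calls support nothing beyond the choice. *Ocel1* was also called there without the block when no filter on low counts was applied (adjusted p = 0.00577, edgeR), against an adjusted p of 0.718 in edgeR with the filter. No share of all genes is given for the unfiltered setting, so that call shows only that the result depends on the filter. The other pairs were *Shank1* in cluster 1, which rested on 13 and 11 UMIs in wild type against 6 and 2 in *Meioc*-null, and *Psd* in cluster 3, which rested on 16, 10, 2 and 7 UMIs.

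In cluster 6, the last before entry and led by *Rec8* and *Ctcfl*, *Sap25* was at 20.3 and 19.6 CPM in wild type against 12.1 and 7.10 CPM in *Meioc*-null. *Ocel1* was at 35.7 and 38.7 CPM against 16.0 and 21.1 CPM. *Adad2* was at 50.9 and 35.0 CPM against 26.6 and 18.4 CPM. Both wild-type libraries lay above both *Meioc*-null libraries for each of the 3, by 2.08, 2.00 and 1.91 times on the means. They were the 3 of 7 members that edgeR called in cluster 6, where 0.867% of all genes were called in either direction and 0.316% as higher in wild type. With the block they were called again, with 5.54% of all genes. DESeq2 called 0 of 7 there, with 3 at an unadjusted p under 0.05. The edgeR calls also rested on the libraries and filter used, with 1 (*Ocel1*) without *Meioc*-null replicate 2, 2 (*Sap25* and *Adad2*) without *Meioc*-null replicate 1, and 2 (*Ocel1* and *Adad2*) where genes needed a UMI in 25% of cells of either genotype. With only cells under 5% mitochondrial UMIs, cluster 6 kept 30 to 65 cells per library and was not tested. Cluster 6 adjoins entry, and whether its cells were among those that the choice of the 7 genes rested on is not known, so the count supports nothing beyond the choice. The genotypes also differed there in the marks of entry, with *Stra8* at 421 and 459 CPM in wild type against 763 and 649 CPM in *Meioc*-null, and *Gm4969* at 19.7 and 24.6 CPM against 10.6 and 10.5 CPM. In cluster 5 *Stra8* was at 88.9 and 81.8 CPM against 156 and 112 CPM, and *Gm4969* at 13.7 and 14.1 CPM against 7.17 and 7.62 CPM. The part of these differences in the members' values was not tested. *Dnpep* was at 65.7 and 49.7 CPM against 49.5 and 44.4 CPM in this cluster, which made 4 of 7 members with both wild-type libraries above, beside 14.1% of all genes, while *Klc3*, at 7.61 and 7.32 CPM against 9.51 and 7.498 CPM, overlapped. *Shank1* (1.31 to 3.52 CPM) and *Psd* (0.592 to 1.55 CPM) were still near the bottom of their range in all 4 libraries.

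**Figure D1:**
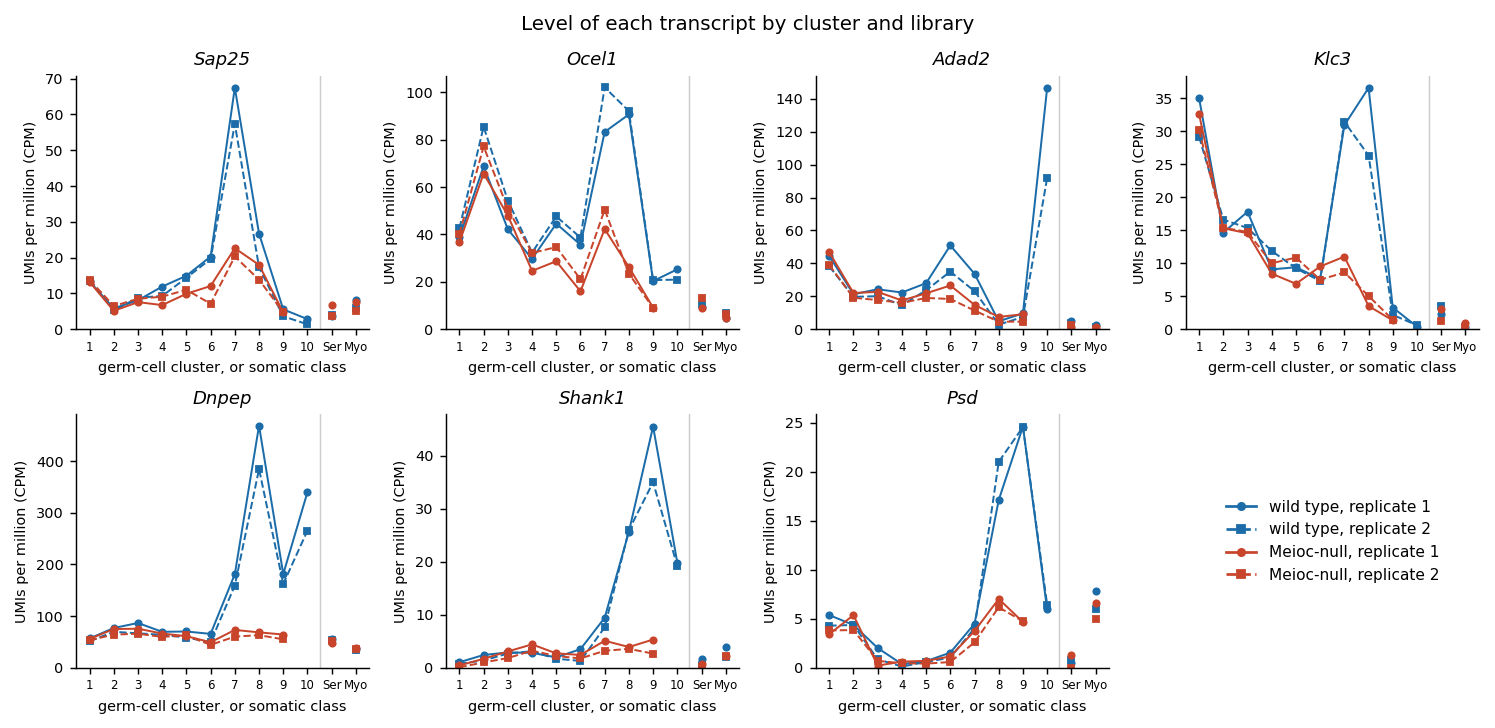
UMIs per 1000000 (CPM, linear axis from 0) of each transcript in germ-cell clusters 1 to 10 and in Sertoli-like (Ser) and peritubular myoid-like (Myo) cells, with a line or set of points for each of the 4 libraries, wild type in blue and *Meioc*-null in red. The red lines end at cluster 9, since cluster 10 had 0 *Meioc*-null cells. The lines lie close in clusters 1 to 4 and part at cluster 5 or 6 for *Sap25*, *Ocel1* and *Adad2*, at cluster 7 for *Klc3* and *Dnpep*, and mainly at clusters 8 and 9 for *Shank1* and *Psd*.

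At cluster 7 all 7 transcripts had both wild-type libraries above both *Meioc*-null libraries, a pattern that 21.6% of all genes tested showed there. The members were chosen for this contrast, so the counts from here on describe the choice. *Sap25* had its maximum in this cluster in every library, at 67.5 and 57.4 CPM in wild type against 22.6 and 20.3 CPM in *Meioc*-null, a mean 2.91 times higher in wild type. The *Meioc*-null maximum was thus in the same cluster and at 36.2 and 32.5% of the wild-type mean. Among cells with under 5% mitochondrial UMIs, 26 to 100 per library in cluster 7, 4 of the 7 members had both wild-type libraries above in that cluster. Maxima under that limit were taken over clusters with at least 50 such cells in a library, which left out cluster 7 in part of the libraries. On that measure the *Meioc*-null maximum of *Sap25* was 115.5% of that of wild type, a value that can set different clusters against each other. *Ocel1* came back in cluster 7 to 83.3 and 102 CPM in wild type, near its early maximum, and to 42.3 and 50.5 CPM in *Meioc*-null. It stayed at 90.7 and 92.1 CPM in wild-type cluster 8, while the *Meioc*-null libraries were at 26.2 and 23.4 CPM. Cluster 9 held 20.3 and 20.7 CPM against 9.11 and 9.004 CPM.

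*Adad2* followed another course after entry. In cluster 7 it was at 33.7 and 23.1 CPM in wild type against 14.8 and 11.3 CPM in *Meioc*-null. In cluster 8 it was scarce in both genotypes, with overlapping values of 4.79 and 2.76 CPM in wild type against 7.44 and 4.55 CPM in *Meioc*-null, and both litter pairs had the higher value in the *Meioc*-null mouse. Cluster 9 overlapped as well, at 9.63 and 7.43 CPM against 9.11 and 4.58 CPM. Cluster 10, led by *Fabp9* and *Ldhc*, had the highest *Adad2* level of all, at 147 and 91.9 CPM in the wild-type libraries, or 3.30 and 2.41 times the level of cluster 1 in the same library. No *Meioc*-null cell was placed in that cluster, so the maximum of *Adad2* in the 2 genotypes cannot be compared here. In the study's own clustering some *Meioc*-null cells were assigned to pachytene. The lactate dehydrogenase transcript *Ldhc*, a marker of pachytene cells, was counted at 21.4 and 3.40 CPM in wild-type cluster 6. The cells of cluster 10 held 18.6 and 10.3 *Ldhc* UMIs per *Adad2* UMI, and those of cluster 6 held 0.421 and 0.0970. Both ratios were lower in cluster 6 than in cluster 10 of the same library. *Ldhc* was at 0 CPM in both *Meioc*-null libraries of cluster 6, and the part of RNA from other cells in the *Adad2* levels was not tested.

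*Klc3* and *Dnpep* parted at cluster 7 and most widely at cluster 8. *Klc3* had a course with 2 maxima in wild type. After its cluster 1 level it was down at 7.61 and 7.32 CPM in cluster 6, came to 30.9 and 31.5 CPM in cluster 7 and to 36.6 and 26.3 CPM in cluster 8, and was at 3.28 and 2.17 CPM in cluster 9 and 0.393 and 0.595 CPM in cluster 10. The 2 *Meioc*-null libraries were at 11.01 and 8.61 CPM in cluster 7 and at 3.51 and 5.04 CPM in cluster 8, a mean 7.36 times below wild type. Because cluster 1 was as high in *Meioc*-null as in wild type, the highest level over all clusters was 95.8 and 88.7% of the wild-type maximum, while over clusters 7 to 9 alone it was 32.3 and 25.3%. *Meioc*-null libraries thus had the first *Klc3* maximum at its wild-type height but not the second.

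From cluster 7 on, *Dnpep* had the highest levels of the 7 in every library and, for its level, the flattest *Meioc*-null profile. Wild-type cells held 181 and 159 CPM in cluster 7, 468 and 385 CPM in cluster 8, 181 and 162 CPM in cluster 9 and 340 and 265 CPM in cluster 10. In *Meioc*-null cells the values were 73.4 and 60.4 CPM in cluster 7, 68.6 and 63.3 CPM in cluster 8 and 64.4 and 55.1 CPM in cluster 9, all within the range of *Meioc*-null clusters 1 to 6. The wild-type mean of cluster 8 was 426 ± 59.3 CPM (SD, n = 2) and the *Meioc*-null mean 65.9 ± 3.78 CPM (SD, n = 2), or 6.47 times apart, with log2 ratios of 2.77 and 2.60 in the 2 litter pairs. Wild-type cluster 9 was thus near cluster 7 in its *Dnpep* level and below cluster 8. The tree joins clusters 8 and 9 to cluster 7 on separate branches. By *Stra8*, cluster 8 lay between the others in wild type, at 2126 and 2017 CPM in cluster 7, 467 and 397 CPM in cluster 8 and 33.4 and 31.2 CPM in cluster 9.

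*Shank1* and *Psd* had their wild-type maxima in cluster 9. *Shank1* was at 9.44 and 7.63 CPM in wild-type cluster 7, 25.7 and 26.0 CPM in cluster 8, 45.5 and 35.0 CPM in cluster 9 and 19.9 and 19.2 CPM in cluster 10. *Meioc*-null libraries held 5.10 and 3.22 CPM in cluster 7, 3.93 and 3.58 CPM in cluster 8 and 5.33 and 2.69 CPM in cluster 9, against a highest earlier value of 4.42 CPM. The means of cluster 9 were 10.0 times apart, the widest gap of any member in any cluster. *Psd* was at 4.498 and 4.05 CPM against 3.75 and 2.60 CPM in cluster 7, the smallest gap of the 7 members there. It was at 17.1 and 21.0 CPM against 7.03 and 6.18 CPM in cluster 8 and at 24.6 and 24.6 CPM against 4.67 and 4.74 CPM in cluster 9. The *Meioc*-null libraries therefore reached 28.6 and 25.1% of the wild-type maximum for *Psd* and 13.2 and 8.89% for *Shank1*.

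**Figure D2:**
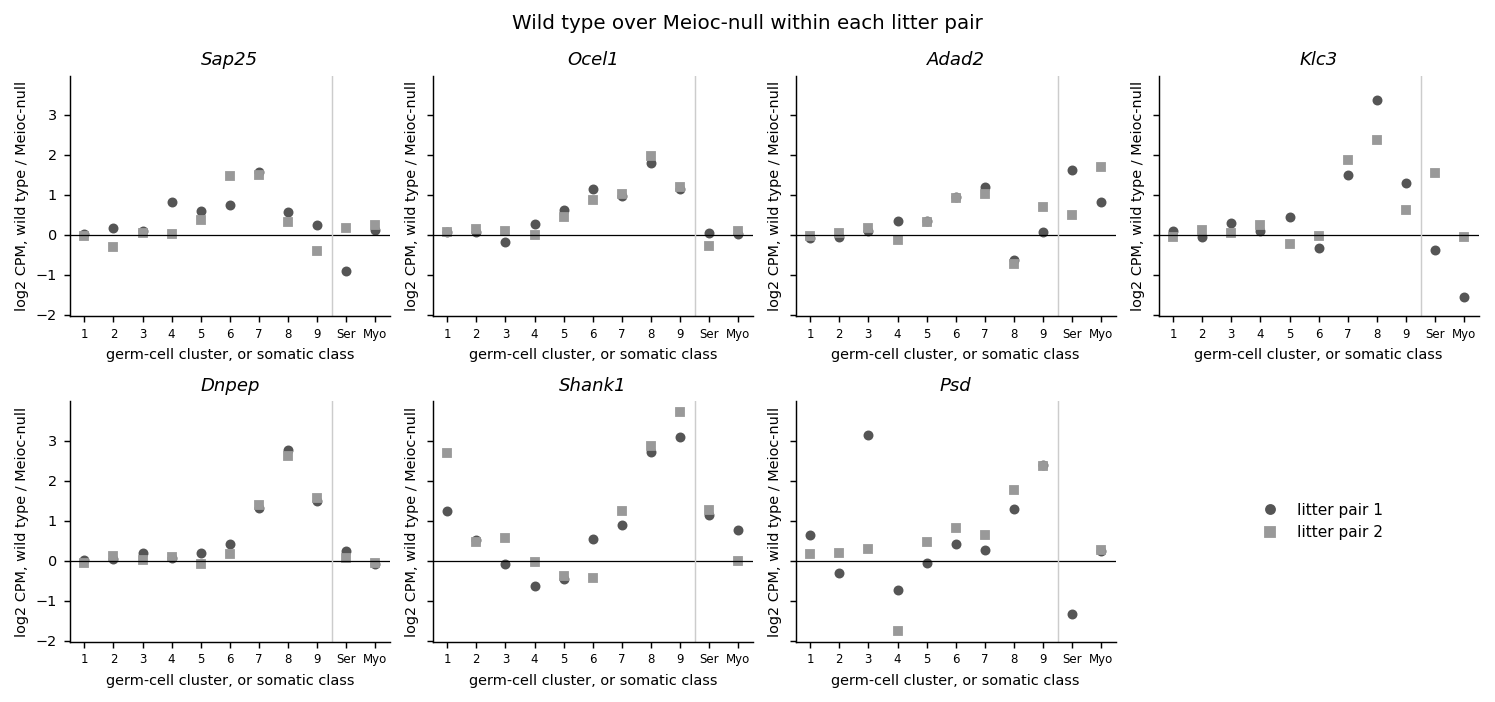
Log2 ratio of CPM, wild type over *Meioc*-null, within each of the 2 litter pairs (circles pair 1, squares pair 2) for clusters 1 to 9 and the 2 somatic classes; 0 is no difference, and a pair with a value of 0 CPM has no point. The ratios of the 2 pairs sit close together from cluster 7 on for most members, reach 3.09 and 3.70 for *Shank1* in cluster 9, and scatter widely where few UMIs were counted, as for *Psd* in clusters 3 and 4 and *Klc3* in somatic cells.

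In cluster 8, 5 of the 7 members had both wild-type libraries above both *Meioc*-null libraries, beside 23.7% of all genes, and *Sap25* and *Adad2* overlapped. In cluster 9 it was again 5 of 7, beside 31.5% of all genes. *Sap25* in cluster 8 was at 26.7 and 17.3 CPM in wild type against 18.0 and 13.8 CPM in *Meioc*-null, higher in wild type within both litter pairs although the genotypes overlapped. In cluster 9 it was at 5.53 and 3.59 CPM in wild type against 4.67 and 4.74 CPM in *Meioc*-null, with the pairs in opposite directions, and *Adad2* overlapped too but was higher in wild type within both pairs. The median log2 fold change of the 7 members was 1.16 in cluster 7, 1.99 in cluster 8 and 1.23 in cluster 9, and that of all genes tested was -0.02, -0.04 and -0.03. Before entry the median of the members was 0.04, 0.06, 0.17, 0.15, 0.27 and 0.58 in clusters 1 to 6. Median UMIs per cell were higher in *Meioc*-null than in wild-type libraries in cluster 8 (11440 and 13705 against 10283 and 9842) and in cluster 9 (12236 and 15189 against 10760 and 10443), and the part of this in the levels in CPM was not tested. *Stra8* in cluster 8 was at 467 and 397 CPM in wild type against 1552 and 1673 CPM in *Meioc*-null, and in cluster 9 at 33.4 and 31.2 CPM against 670 and 597 CPM. *Gm4969* in cluster 9 was at 13.9 and 14.5 CPM against 100.4 and 84.8 CPM. The cells placed in these clusters thus differed in marks of entry as well, as in clusters 5 and 6, and the part of this in the members' values was not tested.

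Onset was read as the first cluster at or above 50% of the mean wild-type maximum of a transcript. By that measure *Sap25* began in cluster 7 and *Dnpep*, *Shank1* and *Psd* in cluster 8, in both wild-type libraries, and *Adad2* began in cluster 10. No *Meioc*-null library reached 50% for these 5 transcripts, although for *Adad2* the cluster of its maximum held 0 *Meioc*-null cells. *Klc3* reached it in cluster 1 and *Ocel1* in cluster 2, in all 4 libraries. The renewed increase of each transcript was therefore also read as the first cluster, from cluster 6 on, at 2 times the lowest of clusters 3 to 6 in the same library, a measure chosen after the values were seen. In both wild-type libraries this came in cluster 6 for *Sap25*, *Adad2* and *Psd* and in cluster 7 for *Klc3*, *Dnpep*, *Shank1* and *Ocel1*, although *Psd* in cluster 6 rested on 11 and 4 UMIs. Both *Meioc*-null libraries reached it for *Sap25* and *Ocel1* in cluster 7, and for *Psd* and *Shank1* at levels of at most 7.03 CPM. Neither *Meioc*-null library did so for *Klc3*, *Dnpep* or *Adad2*, whose highest later level was 1.15 to 1.60 times their lowest.

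Detection in single cells had the same shape. Each cell was thinned to 5000 UMIs, so that shares are comparable between clusters of different depth, and cells with fewer were left out. *Dnpep* was then detected in 89.0 and 84.0% of wild-type and 29.2 and 27.0% of *Meioc*-null cells of cluster 8, and without thinning in 98.9 and 97.1% against 53.2 and 56.9%. *Sap25* was detected in 27.1 and 24.6% of wild-type and 10.4 and 8.96% of *Meioc*-null cells of cluster 7. *Klc3* was found in 14.5 and 9.94% of wild-type and 0.769 and 2.13% of *Meioc*-null cells of cluster 8. For *Shank1* in cluster 9 the shares were 20.8 and 16.1% against 2.70 and 1.78%, and for *Psd* 10.9 and 11.7% against 2.70 and 2.29%. Outside *Dnpep*, then, most single wild-type cells showed no UMI of a given transcript at this depth even at its maximum.

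**Figure D3:**
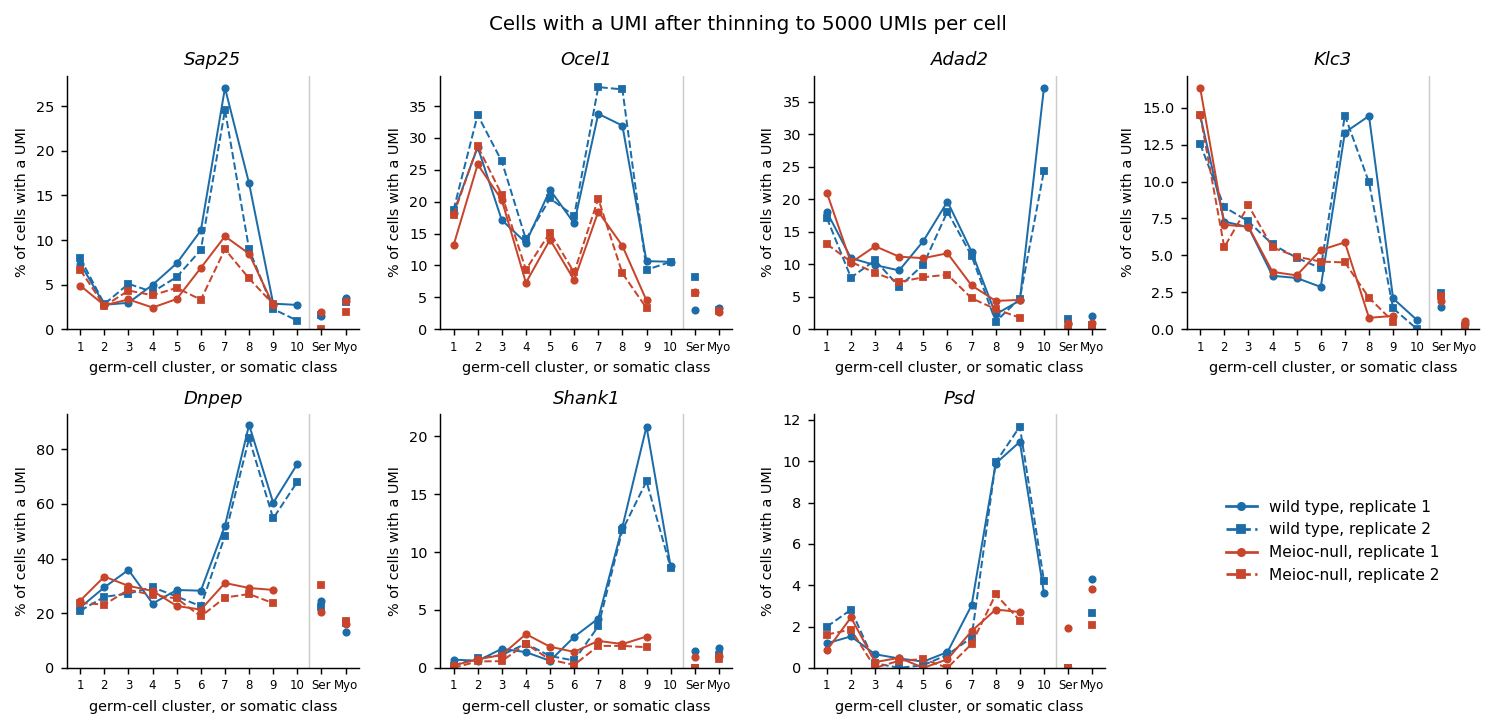
Percent of cells with at least 1 UMI of each transcript after every cell was thinned to 5000 UMIs, by germ-cell cluster and in Sertoli-like (Ser) and peritubular myoid-like (Myo) cells, for each of the 4 libraries. Wild-type libraries (blue) reach 84.0 to 89.0% for *Dnpep* in cluster 8 and stay under 40% for every other transcript, and somatic shares are low for all but *Dnpep*.

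Single cells often held more than 1 of the 7 transcripts. At 5000 UMIs per cell, 45.9 and 47.0% of wild-type cells of cluster 7 had UMIs of 2 or more members, and 16.6 and 14.0% of *Meioc*-null cells did. In cluster 8 the shares were 55.1 and 53.0% against 10.8 and 6.16%. Only 3.80 and 8.19% of wild-type cells of cluster 8 had none of the 7, against 50.5 and 55.2% of *Meioc*-null cells. In cluster 1 the 4 libraries were alike, with 17.3 to 20.1% of cells at 2 or more.

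**Figure D4:**
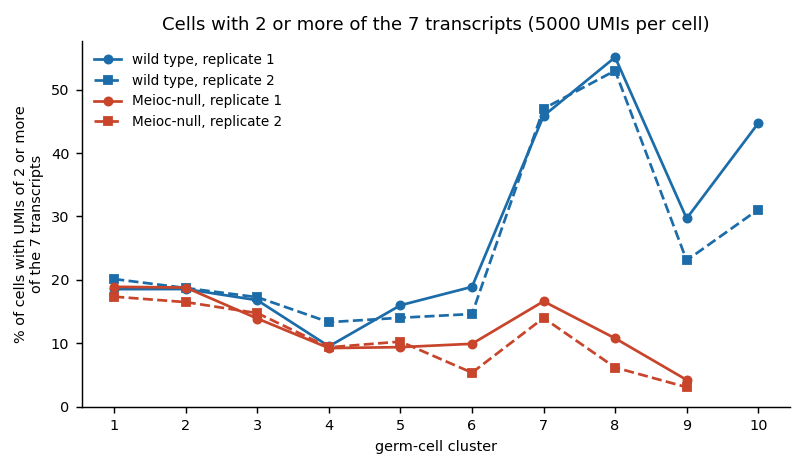
Percent of cells with UMIs of 2 or more of the 7 transcripts, after thinning to 5000 UMIs per cell, by germ-cell cluster for each of the 4 libraries. The wild-type libraries (blue) are highest in cluster 8, at 55.1 and 53.0%, where the *Meioc*-null libraries (red) are at 10.8 and 6.16%.

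Somatic cells gave the background. Sertoli-like cells, the supporting cells of the tubule, numbered 299 to 442 per library, and peritubular myoid-like cells, the contractile cells around it, 548 to 733. *Klc3*, *Shank1* and *Adad2* did not pass 4.74 CPM in either class in any library. *Ocel1* was at 9.01 to 13.0 CPM in Sertoli-like and 4.81 to 6.81 CPM in myoid-like cells, and *Sap25* at 3.55 to 6.70 and 5.02 to 8.21 CPM. *Psd* was counted at 0.000 to 1.29 CPM in Sertoli-like cells and 5.02 to 7.88 CPM in myoid-like cells. Its *Meioc*-null maxima in germ cells, 7.03 and 6.18 CPM, lay within the myoid-like range and above the Sertoli-like one. In the *Meioc*-null libraries, myoid-like cells held 6.64 and 5.02 CPM, and the lowest of clusters 3 to 6 held 0.229 and 0.432 CPM. Barcodes with few detected genes, described next, held 2.35 and 2.53 CPM in those libraries. The part of RNA from other cells in the *Psd* levels was not tested. *Dnpep* was at 47.1 to 55.9 CPM in Sertoli-like and 34.4 to 37.9 CPM in myoid-like cells. The former range lay within that of clusters 1 to 6, and the latter below it. After thinning, 20.4 to 30.3% of Sertoli-like cells had a *Dnpep* UMI and at most 8.20% one of any other member. Thinning kept only 89 to 135 Sertoli-like cells per library, whose median was 2302 to 3635 UMIs before it.

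Barcodes with 1000 or fewer genes, which can hold free RNA or damaged cells, numbered 3001 to 6060 per library and held *Dnpep* at 90.9 and 74.5 CPM in wild type against 52.0 and 46.2 CPM in *Meioc*-null, and *Adad2* at 40.7 and 15.0 CPM against 12.7 and 7.91 CPM. *Klc3* was at 7.31 and 7.99 CPM against 11.02 and 8.23 CPM in them, *Sap25* at 7.14 and 2.82 CPM against 10.5 and 6.01 CPM, and *Psd* at 4.35 and 1.64 CPM against 2.35 and 2.53 CPM. *Ocel1* was at 27.9 and 35.9 CPM against 26.7 and 30.7 CPM. In cluster 6 its wild-type levels, 35.7 and 38.7 CPM, lay above those of such barcodes of the same library, and its *Meioc*-null levels, 16.0 and 21.1 CPM, below. *Shank1* was at 14.3 and 3.99 CPM against 1.63 and 0.633 CPM, so in wild-type replicate 1 such barcodes held more of it than the cells of cluster 7. The wild-type levels of *Dnpep* in cluster 8 and of *Adad2* in cluster 10 were several times those in such barcodes of the same library. The 2 wild-type libraries differed before that. In wild-type replicate 1, *Adad2* was at 50.9 CPM in cluster 6, and clusters 2 to 5 and 7, at 21.3 to 33.7 CPM, were below its level in such barcodes. In wild-type replicate 2 it was at 35.0 CPM in cluster 6, and of clusters 1 to 7 only cluster 4, at 14.6 CPM, was below that level. Clusters 8 and 9 and Sertoli-like cells were below it in both, at 4.79, 9.63 and 4.74 CPM in replicate 1 and 2.76, 7.43 and 4.02 CPM in replicate 2. The level in such barcodes was thus no lower limit for the cells of a library. Between genotypes, edgeR called 0 of 14 pairs of a member and a somatic class, where 0.528% of all genes were called in Sertoli-like and 0.161% in myoid-like cells. DESeq2 also called 0 of 14, and 1 pair passed an unadjusted p of 0.05 in edgeR, beside 5.57 and 3.23% of all genes. That pair was *Adad2* in Sertoli-like cells, at 4.74 and 4.02 CPM in wild type against 1.55 and 2.84 CPM in *Meioc*-null (adjusted p = 0.759, edgeR), which rested on 28, 21, 6 and 12 UMIs.

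*Meioc*-null cells of clusters 7 to 9 that held UMIs of both mitotic transcripts *Plk1* and *Ccnb1* were set beside those that held neither. In cluster 7, with 346 and 213 cells against 892 and 695, *Klc3* was at 4.92 and 5.84 CPM in the former and 15.5 and 10.7 CPM in the latter. *Adad2* was lower in the former as well, at 6.04 and 9.41 CPM against 19.4 and 13.9 CPM. *Sap25* went the other way, at 27.3 and 26.3 CPM against 20.1 and 18.2 CPM. The *Meioc*-null cells with neither transcript were also below the wild-type cells with neither for all of these, which were at 30.1 and 30.5 CPM for *Klc3*, 34.6 and 23.1 CPM for *Adad2* and 69.6 and 58.1 CPM for *Sap25*. *Dnpep* in cluster 8 was at 64.2 and 78.3 CPM in *Meioc*-null cells with neither and 487 and 391 CPM in such wild-type cells. *Meioc*-null cells with both outnumbered those with neither in cluster 8 (171 and 137 against 64 and 100) and cluster 9 (158 and 211 against 74 and 59). In wild-type replicate 2, cluster 9 held 68 with both against 556. The study described a separate cluster of *Meioc*-null spermatocytes, mainly in G2 or M phase. Placing by wild-type cells allowed no such cluster here, and its part in the members' values was not tested.

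The nearest counted gene on each side of each member and those that overlap it make 18 genes, of which 15, 9 and 12 were tested in clusters 7, 8 and 9. edgeR called 1, 2 and 2 of them, where 12.4, 25.8 and 42.7% of all genes were called, and 4 of these 5 calls were higher in wild type. The median log2 fold change of the neighbours tested was 0.15, 0.36 and 0.36 in clusters 7, 8 and 9, against -0.02, -0.04 and -0.03 for all genes and 1.16, 1.99 and 1.23 for the members. *Fbxl15*, 1027 bases upstream of *Psd* on the other strand, was higher in wild type in cluster 8, with 43.5 and 39.4 CPM against 24.2 and 23.9 CPM. *Use1*, which encodes a SNARE protein and lies 1565 bases upstream of *Ocel1*, was also higher there, with 90.0 and 72.9 CPM against 53.3 and 60.0 CPM. *Nr2f6*, a nuclear receptor gene that overlaps *Ocel1* on the other strand, was lower in wild type in cluster 7, with 16.1 and 16.3 CPM against 29.6 and 27.2 CPM. *Lrch4* ends 234 bases upstream of *Sap25* on the same strand and was at 45.2 and 41.2 CPM against 41.2 and 37.7 CPM in cluster 7, where *Sap25* was 2.91 times apart. It was higher in wild type in cluster 9, as was *Clec11a* beside *Shank1*. *Klc3*, *Shank1* and *Psd* each overlap a gene of the other strand as well (*Ercc2*, *1700008O03Rik* and *Nfkb2*), and *Ercc2* was at 13.0 and 7.92 CPM against 11.8 and 8.78 CPM in cluster 8. The counts came from Cell Ranger at its default settings, which for this chemistry take only reads in the direction of the gene.

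Relatives of the members by family or complex were called in both directions, and their counts are read beside the 12.4, 25.8 and 42.7% of all genes called in clusters 7, 8 and 9. Of 6 genes of the kinesin-1 motor, 2 were higher and 1 lower in wild type in cluster 9 by edgeR: *Klc2* (50.02 and 39.1 against 26.4 and 22.1 CPM) and *Kif5c* were higher, and the motor subunit *Kif5b* was lower, at 233 and 221 against 339 and 313 CPM. Among 17 genes of the SIN3 complex in cluster 8, 4 were higher and 3 lower, with the histone-binding *Rbbp7* at 259 and 242 against 166 and 151 CPM, *Rbbp4* also higher and *Arid4a* lower in wild type. Cluster 9 had as many calls with the other balance, 2 higher and 5 lower, and cluster 7 had 1 higher and 2 lower. Of 12 peptidases in cluster 9, 1 was higher and 3 lower, which were *Xpnpep1*, *Pepd* and *Lap3*, the opposite direction to *Dnpep*. Of 7 postsynaptic scaffold genes tested in cluster 9, 1 was higher (*Homer1*, at 59.0 and 55.0 against 39.5 and 28.9 CPM) and 3 were lower, *Dlg4* and *Dlgap1* among them. In cluster 8, 2 of 6 genes of the ARF6 exchange factor list were higher, the exchange factor *Cyth2* and *Arf6* itself, and 1 of 4 with an occludin or ELL domain, *Ell*. In cluster 9 each of these lists had 1 call, lower in wild type, which were *Iqsec1* and *Marveld2*, and *Iqsec1* was higher in wild type in cluster 7. Of 5 adenosine deaminase domain genes in cluster 9, *Adad1* and *Adar* were higher and *Adarb1* lower, at 29.5 and 27.7 against 55.5 and 46.0 CPM. In all, 43 pairs of a family gene and a cluster were called, with 0 in clusters 1 to 6, where at most 0.867% of all genes were called, and 0 in somatic cells, where at most 0.528% were.

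The 7 profiles were not of 1 kind. Over the 36 points of 4 libraries and clusters 1 to 9, Pearson's r of log2(CPM + 1) was 0.84 between *Dnpep* and *Shank1* and 0.79 between *Klc3* and *Ocel1*, but -0.63 between *Shank1* and *Adad2*. These points share libraries and depth, and r is given as a description. Among the 9663 genes detected in 25% or more of the cells of any cluster, the genes most like the mean standardised profile of the members were *Hat1*, a histone acetyltransferase (r = 0.89), *Bcl2l1*, an inhibitor of cell death (r = 0.87), and *Mpv17l2* (r = 0.81), followed by *Nrbp1*, *Rnf138*, *Tbc1d10a*, *Ebna1bp2*, *Dimt1*, *Fam241a* and *1110004F10Rik* (r = 0.74 to 0.79). *Mpv17l2*, which encodes a mitochondrial protein, had means of 73.9 CPM in wild type against 22.2 CPM in *Meioc*-null cluster 8, while *Hat1* had 411 and 288 CPM. For single members the most alike were *Pnldc1*, which encodes a nuclease that trims piRNAs, for *Adad2* (r = 0.93), *Urb2* for *Psd* (r = 0.93), *Anapc5* for *Shank1* (r = 0.90), *Dimt1* for *Dnpep* (r = 0.90), *Aimp2* for *Ocel1* (r = 0.87), *Iqgap2* for *Sap25* (r = 0.86) and *Aatf* for *Klc3* (r = 0.84).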

How the data were processed

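Single-cell libraries of 4 testes, 2 wild-type and 2 *Meioc*-null, were made by the authors with 10x Genomics 3′ chemistry, and matrices of UMI counts per gene and barcode were deposited by the authors with no normalization. The submitters' processing notes name Cell Ranger 4.0.0 and Seurat, with the build GRCm38. Counting used default settings, which take only reads in the sense direction of a gene. Groups and replicate numbers came from the labels, and 0 columns of per-sample values were left unused.

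Barcodes with more than 1000 detected genes and less than 10% mitochondrial UMIs were kept, as in the study. The highest-scoring Scrublet barcodes were removed at 0.8% per 1000 barcodes, 690 to 996 per library. Wild-type cells alone were clustered in scanpy 1.11.5 (Python 3.11.15) with 2000 variable genes other than the listed ones, 30 principal components and Leiden clustering, and every germ cell took the commonest cluster among its 30 nearest wild-type cells. Of the wild-type germ cells, 98.7% returned to the cluster they came from, and 95.7% did with the 7882 genes called between genotypes left out. Each of these cells was among its own 30 nearest, and the clusters were made from the same cells. The shares therefore give no check of how well *Meioc*-null cells were placed. Clusters were named from 3 or more markers, each detected in 25% or more of the cells. Gene coordinates came from GENCODE vM21, which matched 32235 of 32285 gene IDs.

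UMIs were summed per library and cluster, and genes with at least 10 UMIs over the 4 libraries were tested within each cluster with at least 50 cells in every library, by the quasi-likelihood test of edgeR 4.0.16 (R 4.3.3, TMM, genotype as the only term). Calls needed a Benjamini-Hochberg adjusted p under 0.05 and an absolute log2 fold change over 0.1. DESeq2 1.42.0 was an alternative. Per the labels a replicate number marks a litter pair and batch, so the numbers pair the samples. Deviations of same-numbered libraries from their group means correlated at 0.126 to 0.358 over the clusters tested. Precision is limited by the 2 mice per genotype and, for scarce members such as *Shank1* and *Psd* before entry, by the UMIs. On counts simulated for cluster 8 (12690 genes), edgeR recovered 73% of genes changed 2-fold and 100% of those changed 4-fold, and 3.35% of its calls were false. Only well-counted genes were changed there, with the same spread between libraries for every gene and no difference between litter pairs. The shares therefore do not give the recovery of scarce members or of changes in other clusters.

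The members and lists were chosen with earlier results of these data known. From cluster 7 on the members are described. The edgeR fits there took in all genes, the members among them, but their p-values for the members are not used. Named were all 7 members, up to 3 genes of each family list with the smallest adjusted p in the cluster with most calls, the nearest gene on each side of a member or overlapping it, and the 10 genes most alike in profile. The genes most like single members and the cells with *Plk1* and *Ccnb1* UMIs were added after the values were seen.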

Additional observations from a re-analysis of the deposited data

Results flagged for a closer look

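*Shank1* had opposite signs at different stages. In cluster 4 its log2 fold change from edgeR (wild type over *Meioc*-null) was -0.29, with 2.83 and 3.14 CPM in wild type against 4.42 and 3.23 CPM in *Meioc*-null. In cluster 5 it was -0.36, with 1.97 and 1.71 CPM against 2.72 and 2.23 CPM. Both *Meioc*-null libraries thus lay above both wild-type libraries there, while both wild-type libraries lay above in clusters 1, 7, 8 and 9. The difference between clusters was not tested, and the values of clusters 4 and 5 rested on 15 to 31 UMIs per library.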

How the results depend on the processing

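Members called by edgeR in clusters 1 to 6 numbered 3, all in cluster 6. The count was 0 with DESeq2, 6 with the replicate block (*Sap25*, *Ocel1* and *Adad2* in clusters 5 and 6) and 0 with under 5% mitochondrial UMIs, where of clusters 1 to 6 only 3 and 5 kept enough cells to be tested, and it ran from 1 to 3 when each library was left out. Without *Meioc*-null replicate 2 only *Ocel1* was called, and without *Meioc*-null replicate 1 *Sap25* and *Adad2* were. It was 2 (*Ocel1* and *Adad2*) with a 25% detection filter and 4 with no filter on low counts, which added *Ocel1* in cluster 5. The count in somatic cells was 0 under all 13 alternatives. Calls of family genes numbered 43, and 25 with DESeq2, 81 with the replicate block, 0 in the clusters still tested with under 5% mitochondrial UMIs and 33 to 39 when each library was left out. Members with both wild-type libraries above both *Meioc*-null libraries in cluster 7 numbered 7, and 4 with under 5% mitochondrial UMIs. That limit left 26 to 100 cells per library in cluster 7, 3 to 6 in cluster 8 and 11 to 37 in cluster 9. In clusters 8 and 9 the number was 5, with 5 to 6 and 5 to 7 when each library was left out. The median *Meioc*-null maximum was 34.4% of wild type, and the same over clusters 1 to 9, which both genotypes fill. For *Adad2* the percentages set an earlier *Meioc*-null cluster against wild-type cluster 10, which holds 0 *Meioc*-null cells, so they compare different stages. The *Meioc*-null maxima of *Klc3*, *Ocel1* and *Dnpep* also lay in earlier clusters (1, 2 and 3) than those of wild type (7 or 8). With under 5% mitochondrial UMIs the median was 42.2%, where *Sap25* went from 34.4 to 115.5%, *Shank1* from 11.1 to 20.7%, *Psd* from 26.9 to 42.2% and *Adad2* from 36.0 to 17.5%. Maxima needed at least 50 cells in a library, so under that limit clusters 8 and 9 were left out in all libraries and cluster 7 in part of them. The wild-type maxima of *Shank1* and *Psd* over all cells lay in cluster 9, so these percentages rest on other clusters and are not the same measure. The median was 29.3 to 37.4% when each library was left out, the lowest being the value of *Adad2* itself without wild-type replicate 2. It was 28.8% over clusters 7 to 9 alone, an alternative chosen after seeing the data. Over clusters 1 to 9, also chosen after seeing the data, *Adad2* moved from 36.0 to 96.3%. Members that reached their onset in *Meioc*-null libraries numbered 2 at 50% of the wild-type maximum, 5 at 25% and 4 at 2 times the lowest of clusters 3 to 6, the last chosen after seeing the data. The median share of Sertoli-like cells with a UMI was 3.74%, and 1.27% after thinning. The cause of these changes was not tested beyond the cells or libraries that an alternative leaves out.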
